A study of Homo sapiens with 4 samples.

Results

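The Wnt negative feedback regulators examined here are 10 genes of 19729 listed genes: NOTUM, DKK1, APCDD1, RNF43, ZNRF3, NKD1, NKD2, AXIN2, AXIN1 and SP5. They were chosen by name, with earlier results of these data known, as inhibitors of Wnt signaling that β-catenin induces. AXIN1 was added as the constitutive paralog of AXIN2. All 10 were found by their GENCODE v29 symbol and Ensembl identifier. RNA came from HT-29, a microsatellite-stable human colorectal cancer cell line with BRAF V600E and a truncated APC protein. The cells had been stably transduced with a lentivirus for a doxycycline (DOX)-inducible shRNA, either against APC (APC shRNA) or non-silencing (NonS). Both groups received 500 ng/ml DOX for 72 h at passages 3 to 5 after transduction, and each group had biological duplicates, replicates I and II. Both groups are transduced cell pools with 1 shRNA each, so APC silencing and any other difference between the pools cannot be told apart. The comparison asks which of these inhibitors change when the remaining APC activity is silenced.

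Wnt ligands bind Frizzled receptors and the co-receptors LRP5 and LRP6, which stops a destruction complex built on AXIN and APC from marking β-catenin for degradation. β-catenin then enters the nucleus and activates genes through TCF/LEF factors. Many of these target genes code for inhibitors of the pathway itself, at the level of the ligand, the receptor, the cytoplasm or the nucleus, and form negative feedback loops. Loss of APC in the colon leaves the pathway active without ligand, and AXIN2, NKD1 and NOTUM are among its common readouts there.

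The deposited files give each gene a whole number in each library. These values are on an unstated scale and behave as values scaled by gene length and depth and then rounded, so the depth in reads is unknown and no counting interval can be given. Their sums lay between 398338 and 413595 in the 4 libraries. APC, the targeted gene, had a value of 3 in NonS replicate I and of 0 elsewhere, too low to check the silencing here. The paper lists APC among the genes downregulated in these libraries and reports silencing of APC mRNA and protein in these cells. Of 12 colonic epithelial markers, 8 were at 10 or more in every library. All 7 fibroblast and all 5 endothelial markers were at 0. Of 6 leukocyte markers 4 were at 0, with CD14 between 1 and 4 and LYZ between 614 and 906. In bulk RNA, more cells expressing a gene and more RNA per cell cannot be told apart.

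Promoter windows of 6 members were found in the RefSeq table of GRCh38.p14, which holds 300 bases per gene start, 250 before and 50 after it. These members are AXIN1, NKD2, RNF43 (with 2 starts), APCDD1, DKK1 and SP5. AXIN2, NKD1, NOTUM and ZNRF3 had no entry. The windows were searched on both strands for CTTTGAT and CTTTGAA, forms of the core letters that TCF/LEF factors bind, and for CTTTGATC, which contains CTTTGAT. Other forms were not searched, so a match means these letters only. The 250 bases before the start are shown, 5′ to 3′ on the strand of the gene. They are given for SP5 and DKK1, which hold matches, and for RNF43 (the start farther upstream) and AXIN1, which hold none. Capitals mark CTTTGAT or CTTTGAA, or their reverse complement.
SP5, chr2:170715087-170715336, plus strand: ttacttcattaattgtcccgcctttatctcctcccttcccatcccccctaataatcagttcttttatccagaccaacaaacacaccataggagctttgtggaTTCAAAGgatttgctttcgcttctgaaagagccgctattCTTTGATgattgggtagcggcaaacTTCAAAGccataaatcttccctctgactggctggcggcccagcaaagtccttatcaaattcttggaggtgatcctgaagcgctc
DKK1, chr10:52314031-52314280, plus strand: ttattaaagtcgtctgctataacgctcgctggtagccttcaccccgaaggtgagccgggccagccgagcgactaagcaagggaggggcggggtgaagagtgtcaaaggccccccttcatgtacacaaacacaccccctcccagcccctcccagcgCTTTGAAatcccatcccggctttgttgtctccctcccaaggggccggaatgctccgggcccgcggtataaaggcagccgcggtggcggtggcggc
RNF43, chr17:58417535-58417784, minus strand: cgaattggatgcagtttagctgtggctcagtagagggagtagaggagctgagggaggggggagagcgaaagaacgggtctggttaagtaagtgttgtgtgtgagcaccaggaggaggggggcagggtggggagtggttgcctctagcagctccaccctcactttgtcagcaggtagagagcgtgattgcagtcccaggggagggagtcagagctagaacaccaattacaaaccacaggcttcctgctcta
AXIN1, chr16:352724-352973, minus strand: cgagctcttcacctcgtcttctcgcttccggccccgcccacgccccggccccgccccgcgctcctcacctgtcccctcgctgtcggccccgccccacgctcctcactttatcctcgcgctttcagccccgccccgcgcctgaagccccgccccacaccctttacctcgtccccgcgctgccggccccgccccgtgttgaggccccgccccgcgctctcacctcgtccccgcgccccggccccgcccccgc

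The SP5 window held 3 matches, CTTTGAT starting 109 bases before the gene start and CTTTGAA on the opposite strand, with the leftmost base 148 and 84 bases before it. The DKK1 window held 1 match, CTTTGAA at 95 bases before the start. The windows of AXIN1, NKD2, RNF43 and APCDD1 held none, and no member window held CTTTGATC. Of all 35116 windows in the table, 6.86% held CTTTGAT or CTTTGAA at least once, 2.62% held CTTTGAT, 4.43% held CTTTGAA and 0.652% held CTTTGATC. At least 3 matches, a number looked up after the SP5 window was seen, occurred in 9 windows, or 0.0256%. A match is a description of the sequence and does not show binding. The AXIN1 stretch consists of 77.6% G and C, against 45.6% for SP5, 62.8% for DKK1 and 56.0% for the RNF43 stretch shown.

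After APC silencing, NOTUM, NKD1, SP5, AXIN2, ZNRF3 and RNF43 rose. AXIN1 and DKK1 were tested and did not pass, NKD2 was too low to be tested and APCDD1 was listed at 0 in every library. The test was limma on log2(value + 1) over the 5376 genes whose values averaged 10 or more, with Benjamini-Hochberg adjustment, and a gene was called at an adjusted p under 0.05. By this rule 6 of the 8 members tested were called higher and 0 lower, where 8.04% of all genes tested were called, 4.33% higher and 3.7% lower. The members were chosen with earlier results of these data known, so this count is not independent evidence. NOTUM, NKD1 and SP5 passed the filter on low values only through the APC shRNA libraries, so a difference was built into their inclusion. The other 5 members tested had a mean of at least 10 in the NonS libraries alone, and 3 of these, AXIN2, ZNRF3 and RNF43, were called. The smallest adjusted p of any gene tested was 0.0423, so every call lies close to the threshold. The study applied thresholds of over 4-fold and an adjusted p under 0.01 in DESeq2 on count data. It reported NOTUM, NKD1, SP5 and AXIN2 as upregulated. By quantitative PCR it also found known Wnt targets induced after APC silencing, in HT-29 and in another colorectal cancer line. In further lines it found lower AXIN2 when β-catenin was sequestered. Here the unadjusted p of 1912 genes in limma was under 0.05. At the study's thresholds limma, a different test, run on the values as deposited, called 0 members and 0 of all genes. That count depends on the processing, since NOTUM, NKD1 and SP5 passed both thresholds in limma when libraries were scaled to equal totals (adjusted p = 0.0075 for each), by the upper quartile (0.0053) or with a GC content correction (0.0057). In data simulated from these values, more of the genes called at an adjusted p under 0.05 were unchanged than that threshold allows. Each simulated gene took its spread from a gene drawn at random, so this does not give the share of false calls here. For a single gene in 4 libraries, the smallest p of an exact permutation test (two-sided) is 0.333.

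**Figure D1:**
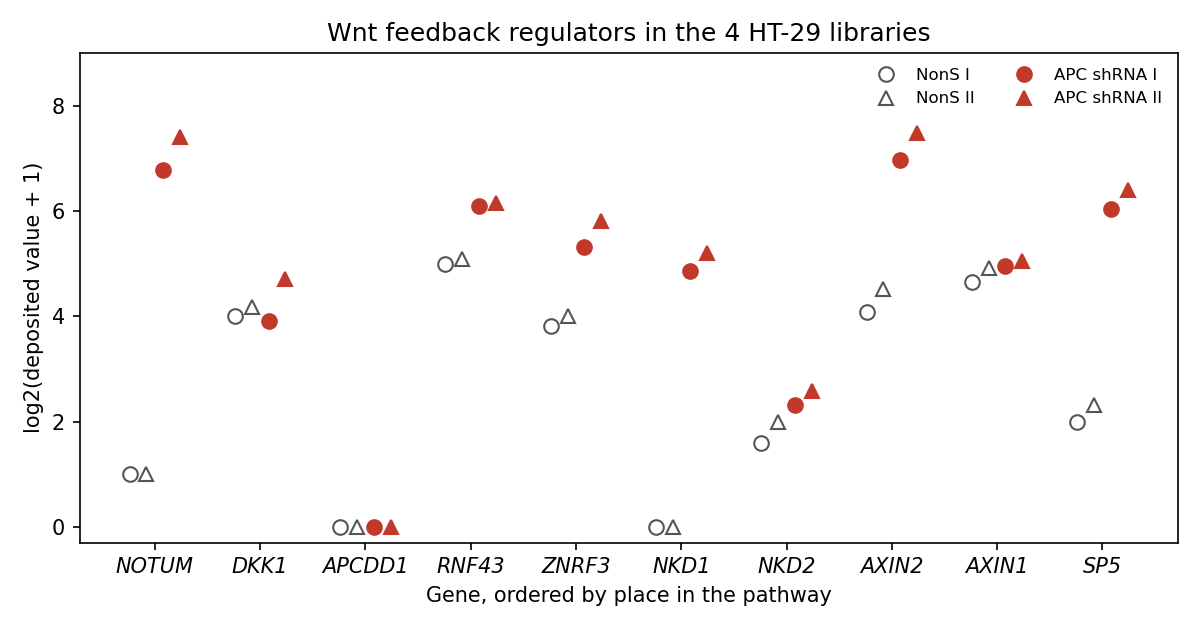
The y axis shows log2(deposited value + 1) of each member in each library, with open symbols for NonS, filled symbols for APC shRNA, circles for replicate I and triangles for replicate II. The groups lie far apart for NOTUM, NKD1, AXIN2 and SP5, overlap for DKK1, and all 4 points of APCDD1 lie at 0.

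At the level of the ligand, NOTUM is a secreted deacylase that removes the palmitoleate group Wnt ligands need for receptor binding. NOTUM (chromosome 17, 81952507 to 81961840, GRCh38) had a value of 1 in each NonS library, against 108 and 168 with APC shRNA. NOTUM stood at 138 ± 42.4 (SD, n = 2) after APC silencing, and how many reads a NonS value of 1 holds is unknown. The log2(value + 1) difference between groups was 6.08 (standard error 0.26, adjusted p = 0.0423 from limma). No fold is given, since a NonS value of 1 is itself rounded, and the difference was 6.94 with a pseudocount of 0.1 and 4.54 with 5. The ratio of replicate II to replicate I in APC shRNA was 1.56 for NOTUM, higher than that of 97.1% of the genes tested, and both values lay far above NonS.

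DKK1 is a secreted antagonist that binds LRP5 and LRP6 and keeps them from the receptor complex. DKK1 (chromosome 10, 52314296 to 52318042) had NonS values of 15 and 17 and APC shRNA values of 14 and 25. The groups overlapped, since the lowest and the highest value both belonged to APC shRNA libraries. Its difference was 0.22 on the log2(value + 1) scale with a 95% interval from -0.80 to 1.23 (adjusted p = 0.655 from limma). It was -0.18 without APC shRNA replicate II and 0.62 without APC shRNA replicate I, so its direction rests on single libraries. Its ratio of replicate II to replicate I in APC shRNA, 1.79, was higher than that of 98.5% of the genes tested. DKK1 shares 212 of its 2206 exon bases with PRKG1-AS1 on the opposite strand. The interval leaves room for a change of over 2-fold, so these libraries do not show that DKK1 was unaffected.

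APCDD1 is a membrane glycoprotein that inhibits Wnt signaling at the cell surface. APCDD1 (chromosome 18, 10454628 to 10489948) was listed at 0 in all 4 libraries, and APC silencing did not bring it to a listed value of 1.

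RNF43 and ZNRF3 are paralogous transmembrane ubiquitin ligases that remove Frizzled receptors from the cell surface. RNF43 (chromosome 17, 58352500 to 58417595) had NonS values of 31 and 33 and APC shRNA values of 67 and 70. Duplicates lay close together, at 32 ± 1.41 and 68.5 ± 2.12 (SD, n = 2 each). Both APC shRNA values lay above both NonS values, as in 33% of all genes tested. The ratio of means was 2.14, and the log2(value + 1) difference between groups was 1.07 (standard error 0.06, adjusted p = 0.0423 from limma). RNF43 shares 4326 of its 7505 exon bases with AC004687.2 and 143 with SUPT4H1 on the same strand, and 1521 with the antisense gene TSPOAP1-AS1, which leaves the assignment of reads uncertain. SUPT4H1, a transcription elongation factor gene, had NonS values of 30 and 32 and APC shRNA values of 46 and 56, and its part in the RNF43 values was not tested.

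ZNRF3 (chromosome 22, 28883592 to 29057487) had NonS values of 13 and 15 and APC shRNA values of 39 and 55. The lowest APC shRNA value lay above the highest NonS value, as in 33% of all genes tested. The means were 14 ± 1.41 and 47 ± 11.3 (SD, n = 2 each), a ratio of 3.36. The log2(value + 1) difference between groups was 1.66 (standard error 0.21, adjusted p = 0.0490 from limma). Among the called members, ZNRF3 lies nearest to the threshold. The adjusted p of ZNRF3 was 0.0511 with a pseudocount of 5, 0.0522 with at least 10 in every library, 0.0542 with a mean of at least 8 and 0.0752 when all genes listed above 0 were tested. No exon of another gene overlaps ZNRF3.

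In the cytoplasm, NKD1 and NKD2 (naked cuticle homologs) bind Dishevelled, the protein that passes the signal on from the receptor. NKD1 (chromosome 16, 50548330 to 50649249) had a value of 0 in each NonS library, against 28 and 36 with APC shRNA, or 32 ± 5.66 (SD, n = 2). It went from not being listed above 0 to a clear value in both duplicates, and the adjusted p was 0.0423 in limma. The longest transcript of NKD1 has 17105 bases, against 2329 for NOTUM. If values are scaled by length, a rounded 0 can therefore hide more reads in NKD1. No fold is given against a group at 0, and its size on a log scale is set by the pseudocount, with a difference of 5.03 at a pseudocount of 1 and of 2.88 at 5. NKD1 shares 67 of its 17425 exon bases with AC007608.1 on the opposite strand.

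NKD2 (chromosome 5, 1008829 to 1038943) had NonS values of 2 and 3 and APC shRNA values of 4 and 5. In 33% of the genes tested, both APC shRNA values lay above both NonS values. They did so for NKD2 by amounts close to the rounding of the values. It fell under the filter, and when all genes listed above 0 were tested its difference on the log2(value + 1) scale was 0.66 (95% interval from -0.13 to 1.46, adjusted p = 0.221 from limma), where 7.44% of those 12799 genes were called higher.

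AXIN2 and AXIN1 are the paralogous scaffold proteins of the destruction complex, AXIN2 being a direct β-catenin target and AXIN1 the form most cells make constitutively. AXIN2 (chromosome 17, 65528563 to 65561647) had NonS values of 16 and 22 and APC shRNA values of 124 and 178. The lower APC shRNA value stood well above the higher NonS value. Separation of the groups in this direction, by any amount, occurred in 33% of all genes tested. The means were 19 ± 4.24 and 151 ± 38.2 (SD, n = 2 each). The ratio of means was 7.95, and the log2(value + 1) difference between groups was 2.92 (standard error 0.27, adjusted p = 0.0452 from limma). Of the 5226 exon bases of AXIN2, 1316 also belong to AC004805.1, a gene on its strand, which leaves the assignment of reads there uncertain.

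AXIN1 (chromosome 16, 287440 to 352673) had NonS values of 24 and 29 and APC shRNA values of 30 and 32. The APC shRNA values lay just above the NonS values, as they did in 33% of all genes tested, and the means were 26.5 ± 3.54 and 31 ± 1.41 (SD, n = 2 each). Its difference on the log2(value + 1) scale was 0.22 with a 95% interval from -0.15 to 0.60 (adjusted p = 0.278 from limma). No exon of another gene overlaps AXIN1. A change in AXIN1 of the size measured for AXIN2 lies outside this interval.

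In the nucleus, SP5 is a zinc finger factor that represses β-catenin target genes. SP5 (chromosome 2, 170715351 to 170718078) had NonS values of 3 and 4 and APC shRNA values of 65 and 83. It was low in NonS cells and rose in both duplicates, to 74 ± 12.7 from 3.5 ± 0.707 (SD, n = 2 each). The log2(value + 1) difference between groups was 4.06 (standard error 0.19, adjusted p = 0.0423 from limma), and it was 4.37 with a pseudocount of 0.1 and 3.21 with 5, since the NonS values lie near the rounding. No exon of another gene overlaps SP5 or NOTUM.

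**Figure D2:**
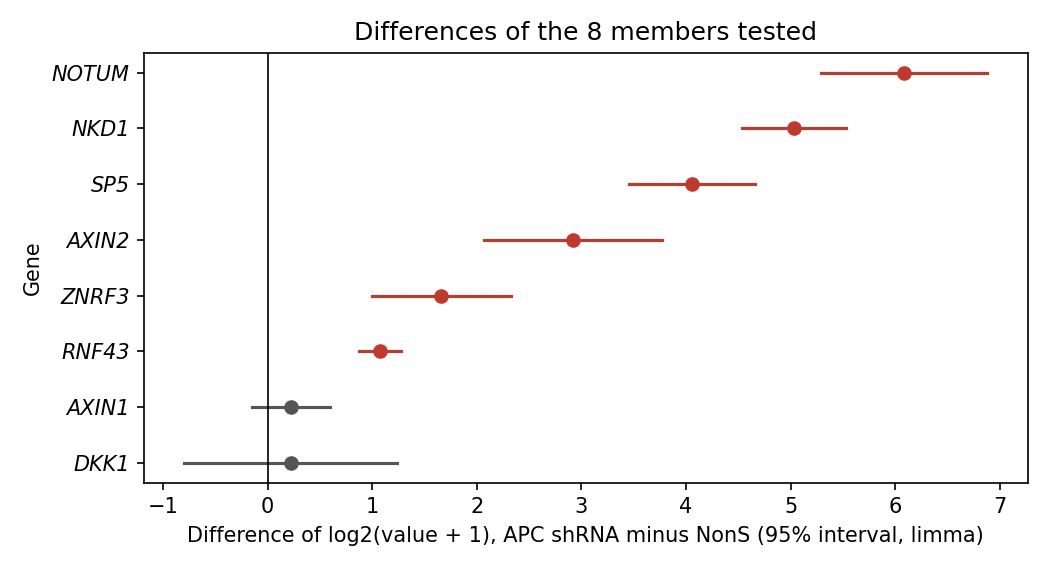
The x axis shows the difference of log2(value + 1), APC shRNA minus NonS, of the 8 members tested, with the 95% interval from limma as a line and called members in red. The differences run from 6.08 for NOTUM to 1.07 for RNF43 among called members, and the intervals of AXIN1 and DKK1 include 0.

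Among all 5376 genes tested, ranked by the difference on the log2(value + 1) scale from the highest down, NOTUM held rank 1, NKD1 rank 2 and SP5 rank 3. AXIN2 held rank 12, ZNRF3 rank 53 and RNF43 rank 124, while AXIN1 and DKK1 held ranks 1521 and 1549. These ranks move with the pseudocount for genes near 0 in NonS. With a pseudocount of 5 NOTUM, SP5, NKD1 and AXIN2 held ranks 1, 2, 5 and 7, and with 0.1 NKD1, NOTUM, SP5 and AXIN2 held ranks 1, 2, 3 and 13. A difference of over 4-fold higher was found in 31 of the genes tested (0.577%), and 4 of these were members, namely NOTUM, NKD1, SP5 and AXIN2. Of these 4 only AXIN2 passed the filter on its NonS values. The median difference over all genes tested was 0.03.

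**Figure D3:**
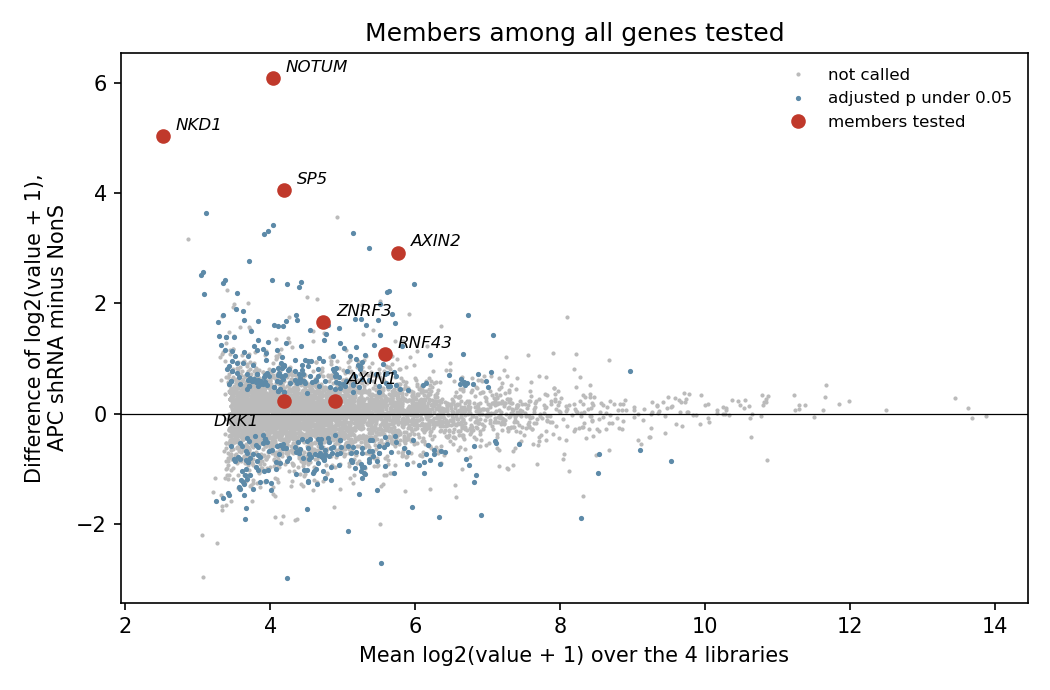
Each point is 1 of the 5376 genes tested, with the mean log2(value + 1) over the 4 libraries on the x axis and the difference of log2(value + 1), APC shRNA minus NonS, on the y axis. Genes called at an adjusted p under 0.05 are blue and members are red, and NOTUM, NKD1 and SP5 lie above all other genes.

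When any 1 library was left out, the lone library of its group was assumed to vary like the other group. In these fits limma called 0 of the 5376 genes, the unadjusted p of 1119 to 1330 of them being under 0.05, and the adjusted p of the 6 members lay between 0.112 and 0.254. As no gene passed, these fits say nothing about the stability of the members' calls in particular. The differences ran from 5.77 to 6.40 for NOTUM, from 2.66 to 3.18 for AXIN2, from 1.42 to 1.90 for ZNRF3 and from 1.03 to 1.12 for RNF43.

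Paralogs were set side by side within each library as the log2 ratio of value + 1. The AXIN2 to AXIN1 ratio was -0.56 and -0.38 in NonS and 2.01 and 2.44 in APC shRNA libraries. The sign turned in both duplicates, and the mean moved by 2.70. The NKD1 to NKD2 ratio was -1.58 and -2.0 in NonS and 2.54 and 2.62 in APC shRNA libraries, a turn in the same direction whose size is set by the pseudocount, since NKD1 was at 0 in NonS. The RNF43 to ZNRF3 ratio was 1.19 and 1.09 in NonS and 0.77 and 0.34 in APC shRNA libraries. Both ligase genes rose, and the ratio fell by 0.59, from 1.14 ± 0.07 to 0.55 ± 0.30 (SD, n = 2 each). The groups did not overlap, but how often ratios of other gene pairs separate them was not examined. The ratios are given as a description, with no test.

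Other genes of the pathway were read from 5 lists in the same fit, in which 4.33% of all genes tested were called higher and 3.7% lower. Of 36 genes of Wnt ligand output and receptors, 18 were at 0 in every library and 4 could be tested, of which 1 was called higher and 0 lower. The called gene was WNT11, a ligand mostly known from β-catenin-independent signaling, with NonS values of 9 and 12, APC shRNA values of 93 and 128 and a difference of 3.27 (adjusted p = 0.0423 from limma). LRP5, the co-receptor that DKK1 binds, had NonS values of 69 and 83 and APC shRNA values of 67 and 66 and was not called. LGR4, an R-spondin receptor that restrains RNF43 and ZNRF3, was singled out after its values were seen. It had NonS values of 21 and 15 and APC shRNA values of 6 and 4, with a difference of -1.67 (adjusted p = 0.0625 from limma). LGR4 passed the filter only through the NonS libraries, so a difference was built into its inclusion.

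In the cytoplasm, 12 of 20 signal transducers and destruction complex genes were tested, and 2 were called higher and 0 lower. CSNK1E, a kinase that phosphorylates Dishevelled, had NonS values of 16 and 15 and APC shRNA values of 28 and 27 (difference 0.79). DVL3, a Dishevelled protein and so a partner of the NKD proteins, was listed at 16 in both NonS and 24 in both APC shRNA libraries (difference 0.56). The median difference of the 12 genes was 0.23. Of 16 nuclear β-catenin partners 6 were tested and 0 were called in limma, with differences from -0.22 to 0.76.

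Of 25 other Wnt inhibitors 16 were at 0 in every library and 3 were tested, and 2 of these were called higher and 0 lower. SOSTDC1, a secreted antagonist of Wnt and BMP signaling, had NonS values of 3 and 2 and APC shRNA values of 20 and 19 (difference 2.56, adjusted p = 0.0423 from limma). KREMEN1, the receptor with which DKK1 clears LRP6 from the membrane, had NonS values of 4 and 5 and APC shRNA values of 23 and 25 (difference 2.19, adjusted p = 0.0423 from limma). Both genes passed the filter only through the APC shRNA libraries. The DKK, SFRP, WIF1 and SOST genes of the list were at 0 in every library, apart from DKKL1, listed at 1 in APC shRNA replicate II.

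Of 20 genes listed as other β-catenin targets 13 were tested, and 8 were called higher and 0 lower. The list was written with earlier results of these data known. It holds LARGE2 and PTK7, which the study named as candidates from these libraries. The largest differences were those of LARGE2 (3.63), ASCL2 (3.42), PTK7 (3.01) and TEAD2 (2.35), and all 4 are on the list of changed genes that the study drew from these same libraries, as are NOTUM, NKD1, SP5 and AXIN2, so the count is not independent evidence. LARGE2 and ASCL2 passed the filter only through the APC shRNA libraries. CCND1, JUN, SOX4 and ZNF703 were the other called genes, with differences from 1.25 to 2.21. The difference of MYC was -0.43 with a 95% interval from -1.10 to 0.23, that of CD44 -0.27, and neither was called.

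Profiles were compared by the Euclidean distance of log2(value + 1), less the NonS mean, over the 4 libraries. The genes nearest to AXIN2 were PTK7 at 0.43 and PADI2 at 0.45, and those nearest to SP5 were LARGE2 at 0.88 and ASCL2 at 0.95. For NOTUM the nearest gene outside the members, LARGE2, lay at 3.50. The distances describe 4 libraries in 2 groups and are dominated by the size of the change.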

How the data were processed

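The 4 libraries were grouped by the sample titles, with 2 biological duplicates per group. Libraries were made with a stranded mRNA kit and sequenced as 50 bp single reads. After quality filtering and polyA trimming, the authors aligned reads with TOPHAT2 to human genome assembly 38 and assigned them to GENCODE v29 genes by htseq-count, while the submitters' processing notes name hg19. The strand option of the counting is not given in the sources used here. The deposited values were handled as a score, since their scale is not stated: between duplicates of low genes the variance was 0.484 (NonS) and 0.363 (APC shRNA) times that of independent read counts, and the sum of value times the longest transcript in kb was between 980841 and 984873 in every library. The deposited table of the authors' own comparison, with each gene's mean, log2 fold change, fold change and adjusted p-value from DESeq2 (version 1.4.1 per the labels), was not used. The number of per-sample columns not used was 0.

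log2(value + 1) was compared with limma 3.58.1 (lmFit, eBayes with a mean-variance trend) in R 4.3.3, without rescaling, in genes averaging 10 or more over the 4 libraries. Other steps used Python 3.11.15, pandas 2.3.3 and scipy 1.17.1. The fit was tested on simulated data made from these values. p-values measure the spread between duplicates of 1 cell pool per group. Rounding hides that spread where duplicates share a whole number, as for NOTUM and NKD1 in NonS and DVL3 in both groups. Their standard errors and p-values then rest in part on limma's moderation across genes. Alternatives covered scaling, pseudocount, filters, moderation, a replicate block, a GC content correction (loess, span 0.5), thresholds and fits without 1 library. Named genes were the members, APC, in each list the called genes with the 4 largest differences and, for 3 members, the 2 nearest profiles, and any other gene was named after its values were seen. The members, lists and tests were chosen with earlier results of these data known. Positions and exon overlaps come from GENCODE v29 (GRCh38), promoter windows from RefSeq.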

Additional observations from a re-analysis of the deposited data

How the results depend on the processing

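The 6 members called higher numbered 5 or 6 under every alternative but these: 2 of 5 tested with at least 10 in every library, 0 at an adjusted p under 0.01 and over 4-fold in the values as deposited, and 0 in each fit without 1 library. Over all genes, 233 were called higher and 199 lower, and both counts were 0 at the stricter thresholds, which were applied to the values as deposited only, and ranged from 0 to 0 with a library left out. Higher and lower calls were 952 and 515 with all genes listed above 0, 368 and 352 with robust moderation, and 440 and 464 with the GC content correction. Calls higher were 139 with at least 10 in every library. Calls lower were 305 with median-of-ratios scaling, 369 scaled to equal totals and 349 scaled by the upper quartile. The replicate block gave 523 higher and 500 lower, and with the GC content correction 1213 and 1263. It changed no member's call. Differences between same-numbered duplicates correlated between the groups (0.724 across genes), but neither labels nor methods say that a number marks a shared day, so the numbers were not taken to pair the libraries. Over the 5 lists, 13 genes were called higher, 8 with at least 10 in every library, 21 with the block and GC content correction and 0 with a library left out. Calls lower over the lists were 0, but 1 under each of the 3 scalings and robust moderation, 2 under the block and under the GC content correction, and 4 under both. These were LGR4, joined by MYC, DVL1 or LRP5. The change of the NKD1 to NKD2 ratio, 4.37, was 7.47 at a pseudocount of 0.1 and 2.54 at 5. With CTTTGATC as the only motif, 0 members had a match, where 2 had CTTTGAT or CTTTGAA. Of 133 comparisons of a member's difference with an alternative, 104 kept direction and call, 28 lost the call and 1 reversed: DKK1, whose difference ranged from -0.18 without APC shRNA replicate II to 0.62 without APC shRNA replicate I. What caused these shifts was not tested, except that fewer libraries leave fewer degrees of freedom. Rounding limits members near 0, which are NOTUM, NKD1, NKD2 and SP5 in NonS, and the depth in reads is unknown.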
